A study of Mus musculus with 8 samples.

Results

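RANKL, its decoy osteoprotegerin and its receptor RANK form the system that sets osteoclast formation, and the 3 genes that encode them in the mouse are Tnfsf11, Tnfrsf11b and Tnfrsf11a. They were selected by symbol from the 52636 genes of the deposited count matrix, and each symbol matched 1 gene. The genes were proposed with earlier results of the same comparison known, among them the difference in Tnfsf11. Their differences between the groups are therefore given as a description. Results for them from tests over all genes are printed, but no conclusion is drawn from these.

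RANKL is a membrane-bound cytokine of the TNF family that can also be shed. When it binds RANK on monocytic precursors, those cells differentiate into bone-resorbing osteoclasts. Osteoprotegerin is a secreted receptor without a membrane anchor that captures RANKL before it reaches RANK. In bone marrow, RANKL and osteoprotegerin are made by cells of the mesenchymal lineage, including stromal cells that carry the leptin receptor (LEPR), osteoblasts and osteocytes, and RANKL is also made by lymphocytes. The lymphotoxin β receptor (LTβR) is another member of the TNF receptor family, and it signals through both branches of NF-κB.

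The 8 libraries are polyA RNA from LEPR+ mesenchymal stem cells of C57BL/6 mouse bone marrow, gated on the absence of CD45, Ter119, CD31 and CD144 and then sorted again. In the LTβR-Ig group, 4 libraries came from mice given a soluble LTβR decoy, and in the control group 4 came from mice given an IgG1 antibody to hen egg lysozyme. Both proteins were injected into a vein at 150 µg once a week for 3 weeks, so the decoy reached the whole animal and not the LEPR+ cells alone. The study speaks of 4 pairs without saying what a pair shares. The labels give neither age nor sex and do not say whether a library is 1 mouse, so errors measure the spread between these libraries. The comparison asks what blocking the ligands of LTβR does to gene expression in these cells.

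Total counts were 52378101 to 61164510 in the LTβR-Ig libraries and 56466028 to 64403177 in the control libraries. The sorted population carried its defining transcript, with Lepr at 3159 to 4498 CPM (counts scaled to library size) in LTβR-Ig libraries and 4270 to 4372 CPM in control libraries. On the first principal component, which held 19.0% of the variance, LTβR-Ig replicate 2 and control replicate 3 lay at opposite ends. Values without these 2 libraries are given where they bear on a result.

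Tnfsf11 (ENSMUSG00000022015) lies on the minus strand of chromosome 14, from 78277445 to 78308043 in GRCm38, the assembly also called mm10. Its single annotated transcript has 5 exons and 2236 exon bases. No other annotated gene overlaps it, nor any overlaps Tnfrsf11b or Tnfrsf11a, so no annotated antisense or nested gene shares their reads. The 250 bases before its start are shown because Tnfsf11 is the gene of the 3 whose libraries separated by group. They are chr14:78308044-78308293 of GRCm38.p6, from RefSeq, on the gene's strand, with the AACCAC and TATAA matches in capitals.
Tnfsf11 promoter: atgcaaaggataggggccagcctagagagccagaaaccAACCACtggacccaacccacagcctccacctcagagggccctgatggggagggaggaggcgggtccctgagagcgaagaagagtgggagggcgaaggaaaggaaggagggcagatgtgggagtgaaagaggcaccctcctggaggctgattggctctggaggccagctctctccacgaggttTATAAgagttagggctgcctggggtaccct

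A TATAA match began 30 bases before the start, at -30, with an overlapping match on the other strand, and 22.8% of 32851 RefSeq promoter windows of the same length held TATAA on either strand. The RUNX core AACCAC occurred once, at -212, and 10.8% of windows held it. A loose κB form (3 G, any 5 bases, then 2 C) occurred once on each strand, as in 45.8% of windows with at least 1 match. AGGTCA (a nuclear receptor core), TGANTCA (AP-1) and TGACG (a CRE core) were not among these letters on either strand, although 14.0, 6.75 and 17.8% of windows held them.

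Tnfsf11 had 136.9, 260.3, 102.2 and 220.8 CPM in LTβR-Ig replicates 1 to 4, against 64.3, 91.0, 65.6 and 79.6 CPM in control replicates 1 to 4. Each LTβR-Ig library was above each control library, and the lowest LTβR-Ig library was 1.12 times the highest control library. The means were 180.1 ± 73.1 CPM in LTβR-Ig libraries and 75.1 ± 12.7 CPM in control libraries (SD, n = 4 each). The log2 fold change was 1.26 (SE 0.29), a 2.40-fold difference with a 95% interval of 1.53 to 3.76. That interval takes no account of the gene having been proposed from this contrast.

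The spread of Tnfsf11 was wider with LTβR-Ig. Its coefficient of variation was 40.6% among LTβR-Ig libraries and 16.8% among control libraries, against a counting error of 1.18% at its mean count. Among 1370 genes within 1.5-fold of its mean level, the median coefficient was 14.7% in LTβR-Ig libraries and 13.6% in control libraries. LTβR-Ig replicates 2 and 4 were high, and replicates 1 and 3 lay nearer to the controls. Without LTβR-Ig replicate 2 and control replicate 3 the log2 fold change was 0.96.

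Tnfrsf11b (ENSMUSG00000063727), the osteoprotegerin gene, lies on the minus strand of chromosome 15, from 54250619 to 54278484, with 2818 exon bases. It had 12.97, 3.55, 23.7 and 8.02 CPM in LTβR-Ig replicates 1 to 4, against 14.3, 9.62, 9.33 and 1.35 CPM in control replicates 1 to 4. The groups overlapped, and the lowest value of all 8 was that of control replicate 4, from 79 counts. The means were 12.1 ± 8.66 CPM in LTβR-Ig libraries and 8.65 ± 5.38 CPM in control libraries (SD, n = 4 each).

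The log2 fold change of Tnfrsf11b was 0.48 (SE 0.72), with a 95% interval of 0.447-fold to 4.34-fold. That interval lies on both sides of equal levels, so no direction can be given. Without LTβR-Ig replicate 3, the highest library, the log2 fold change was -0.07. Highest and lowest libraries differed 6.68-fold with LTβR-Ig and 10.6-fold among controls. Of 2200 genes within 1.5-fold of its mean level, 92.2% varied less among LTβR-Ig libraries and 88.5% varied less among control libraries.

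Tnfrsf11a (ENSMUSG00000026321), the gene of the receptor RANK, lies on the plus strand of chromosome 1, from 105780718 to 105847981, with 5985 exon bases. It had 225, 0, 72 and 8 counts in LTβR-Ig replicates 1 to 4, against 30, 0, 124 and 221 counts in control replicates 1 to 4. This came to 3.65, 0, 1.27 and 0.156 CPM with LTβR-Ig and 0.479, 0, 2.21 and 3.77 CPM in controls. Replicate 2 of each group had no count, which allows a level of up to 0.0566 CPM in LTβR-Ig replicate 2 and 0.0458 CPM in control replicate 2, counting error only.

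The RANK gene was counted in 6 of 8 libraries, at 8 to 225 counts, and the groups overlapped. The log2 fold change was -0.35 (SE 1.80), and its sign differed between settings. RANK is the receptor of monocytes and osteoclasts, which the CD45 gate is meant to remove. Ptprc, the CD45 gene, named outside the rule given below, still had 39.9 to 57.6 CPM in LTβR-Ig libraries and 21.7 to 61.1 CPM in control libraries. Monocyte and macrophage markers, 14 genes, summed to 1169 to 2896 CPM in LTβR-Ig libraries and 1014 to 2345 CPM in control libraries, with 0 of 14 at an unadjusted p under 0.05. Control replicate 2, with no Tnfrsf11a count, had the lowest of these sums, while LTβR-Ig replicate 1, with the highest Tnfrsf11a level of its group, also had the lowest sum of its group. Their part in the Tnfrsf11a counts was not tested.

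**Figure D1:**
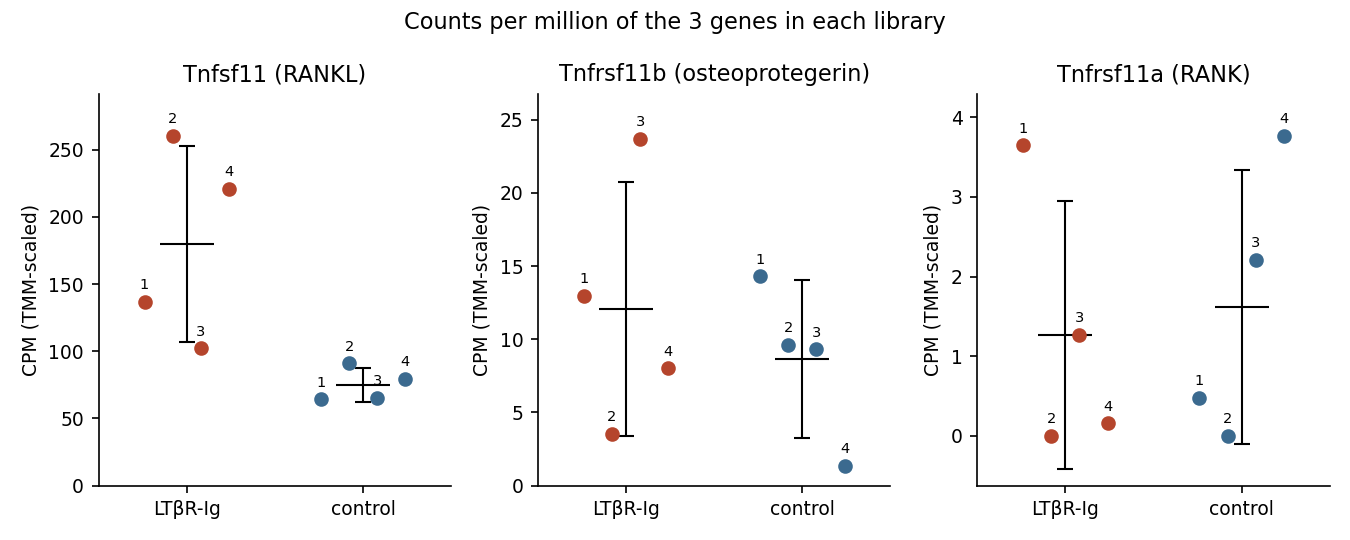
TMM-scaled CPM of Tnfsf11, Tnfrsf11b and Tnfrsf11a in each library, with the replicate number beside each point and the mean ± SD of 4 libraries in black. Tnfsf11 lies at 102.2 to 260.3 CPM with LTβR-Ig and at 64.3 to 91.0 CPM in controls, whereas the groups overlap for the other two genes.

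Across all 16045 genes tested, the edgeR quasi-likelihood test with Benjamini-Hochberg adjustment called 6 genes at an adjusted p of 0.05, or 0.0374%, and 0 of the 3 genes described here were among them. At an unadjusted p under 0.05 the count was 1 of 3, Tnfsf11, beside 6.32% of all genes tested (3.39% higher and 2.93% lower). The edgeR adjusted p of Tnfsf11 was 0.251. At an adjusted p of 0.05, which Tnfsf11 missed in edgeR, the DESeq2 Wald test called 1 of the 3, Tnfsf11, and 1.99% of the genes it tested. Separation of all 4 libraries of 1 group above those of the other was seen for 1 of the 3 genes, Tnfsf11, with LTβR-Ig higher. Among all genes tested, 4.89% separated in this way, 2.36% with LTβR-Ig higher and 2.53% with LTβR-Ig lower. Because the genes were proposed from this contrast, nothing is read from these counts. In bulk RNA, a higher share of cells that make RANKL and more Tnfsf11 RNA per cell cannot be told apart.

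The balance of the ligand and its decoy was taken as the ratio of Tnfsf11 to Tnfrsf11b counts within a library, which needs no scaling between libraries. The ratio was 10.6, 73.4, 4.32 and 27.5 in LTβR-Ig replicates 1 to 4, against 4.49, 9.47, 7.03 and 59.1 in control replicates 1 to 4. Ligand counts exceeded decoy counts in each of the 8 libraries. The groups overlapped across almost their whole range, and the lowest ratio was that of LTβR-Ig replicate 3.

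Counting error was small beside the spread of the ratio. The exact 95% binomial intervals ran from 63.5 to 85.2 for LTβR-Ig replicate 2 and from 47.3 to 74.7 for control replicate 4, the libraries with the fewest Tnfrsf11b counts of their groups, and these cover counting error only. Within a group the highest and lowest ratio differed 17-fold with LTβR-Ig and 13.1-fold among controls. Per length of exon, which puts both genes on 1 scale, the ratio was 5.44 to 92.5 in LTβR-Ig libraries and 5.66 to 74.4 in control libraries.

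On the log2 scale the ratio averaged 4.12 ± 1.76 with LTβR-Ig and 3.53 ± 1.63 in controls (SD, n = 4 each), a difference of 0.60 that is smaller than the SD of either group. Tnfrsf11b carried more of this spread than Tnfsf11. The SD of log2 CPM was 1.16 for Tnfrsf11b and 0.62 for Tnfsf11 among LTβR-Ig libraries, and 1.53 for Tnfrsf11b and 0.24 for Tnfsf11 among controls. Leaving out 1 library moved the difference between -0.10, without LTβR-Ig replicate 2, and 1.38, without control replicate 4. Without both LTβR-Ig replicate 2 and control replicate 3 it was -0.33.

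Within the LTβR-Ig group the order of libraries was reversed between the genes. Replicates 2, 4, 1 and 3 followed each other from the highest to the lowest Tnfsf11, and replicates 3, 1, 4 and 2 from the highest to the lowest Tnfrsf11b. Among controls the order was 2, 4, 3 and 1 for Tnfsf11 and 1, 2, 3 and 4 for Tnfrsf11b. With 4 libraries a group this is a description, and no correlation was computed for it.

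**Figure D2:**
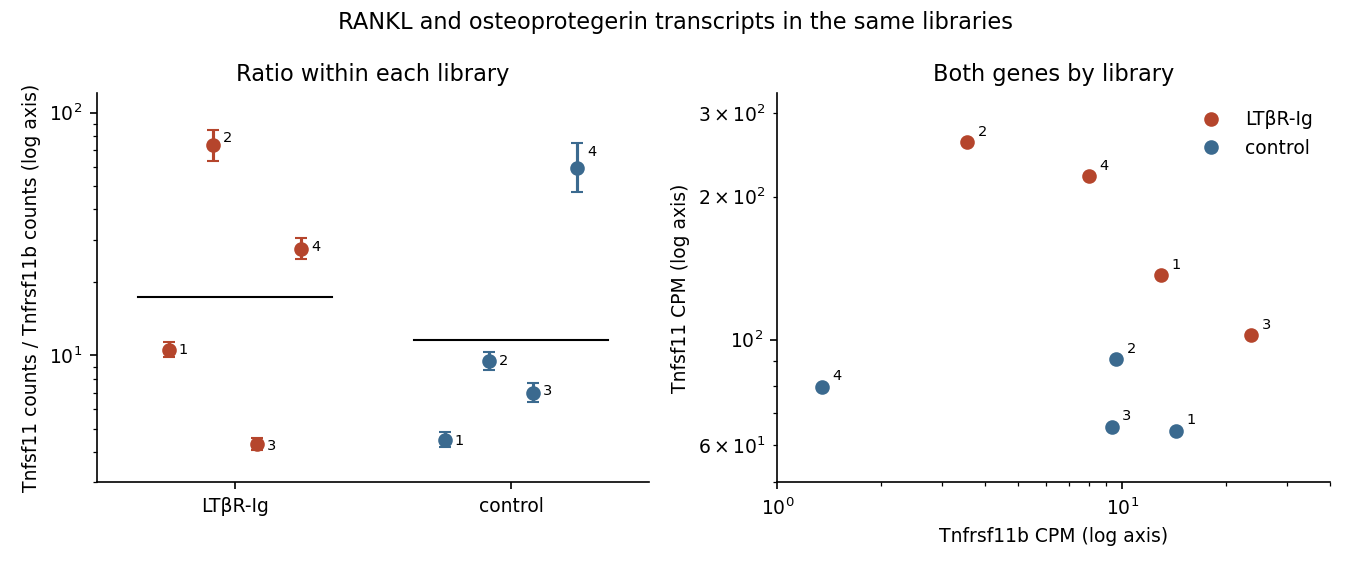
Left, the ratio of Tnfsf11 to Tnfrsf11b counts in each library on a log axis, with the replicate number, the exact 95% binomial interval as a bar and the geometric mean of each group as a line (17.4 with LTβR-Ig and 11.5 in controls). Right, CPM of both genes by library on log axes, where LTβR-Ig libraries lie higher on the Tnfsf11 axis and both groups spread along the Tnfrsf11b axis.

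Levels were then set against the other genes of both families, as CPM per kb of exon. Tnfsf11 was the highest of 18 TNF ligand genes in each group, at 80.5 ± 32.7 CPM per kb in LTβR-Ig libraries and 33.6 ± 5.66 CPM per kb in control libraries (SD, n = 4 each). Among the genes tested it stood at the 92.6th to 96.8th percentile of level per length in LTβR-Ig libraries, and at the 88.5th to 91.8th percentile in control libraries. Tnfsf12, the gene of the cytokine TWEAK, followed at 29.3 CPM per kb with LTβR-Ig and 23.96 CPM per kb in controls, and it was below Tnfsf11 in 8 of 8 libraries. Eda, which encodes ectodysplasin, came next at 9.66 CPM per kb with LTβR-Ig and 8.76 CPM per kb in controls. Tnfsf14, the gene of the LTβR ligand LIGHT, had 3.28 CPM per kb with LTβR-Ig and 1.92 CPM per kb in controls, with overlap. Tnfsf13b, the gene of the B cell factor BAFF, had 1.80 CPM per kb with LTβR-Ig and 3.16 CPM per kb in controls, without overlap. Of the 18 genes, 4 (Tnfsf4, Fasl, Cd70 and Tnfsf8) had no count in any library.

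Among 28 TNF receptor genes, Tnfrsf11b came 10th in each group by mean level per length, and Tnfrsf11a 23rd in each group and 25th by the mean over all 8 libraries. Tnfrsf11b had 4.28 ± 3.07 CPM per kb in LTβR-Ig libraries and 3.07 ± 1.91 CPM per kb in control libraries (SD, n = 4 each). Its neighbours were taken by the mean over all 8 libraries, so their closeness to it follows from the choice. Tnfrsf11b was above Tnfrsf12a, the TWEAK receptor gene, in 4 of 8 libraries and above Relt, a receptor gene of the same family, in 5 of 8. Tnfrsf11a had 0.212 ± 0.281 CPM per kb with LTβR-Ig and 0.270 ± 0.288 CPM per kb in controls, and it was above its neighbours by that overall mean, Ngfr and Tnfrsf25, in 4 and 3 of 8 libraries. The highest receptor gene was Tnfrsf1a, which encodes a TNF receptor, at 89.1 CPM per kb with LTβR-Ig and 88.9 CPM per kb in controls, and Tnfrsf19 was next in both groups, ahead of Ltbr and Tnfrsf21. Ltbr, the target of the decoy's ligands, had 40.6 CPM per kb with LTβR-Ig and 31.7 CPM per kb in controls.

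**Figure D3:**
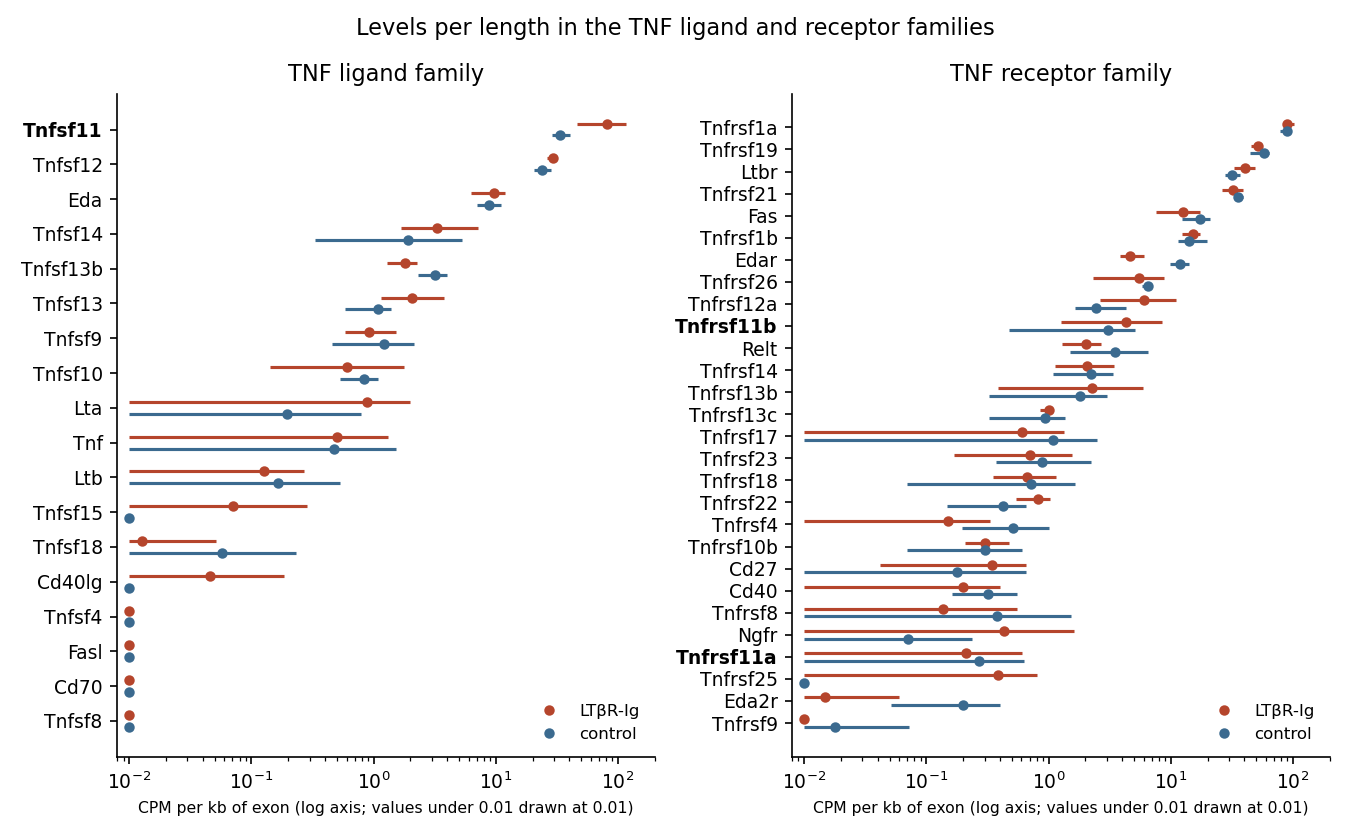
Mean level per length of each TNF ligand gene (left) and TNF receptor gene (right) as CPM per kb of exon on a log axis, with the lowest to highest of 4 libraries as a line, LTβR-Ig above control for each gene. Tnfsf11 heads the ligands in both groups, Tnfrsf11b has a wide range in the middle of the receptors, and Tnfrsf11a reaches the lower end with libraries at 0.

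The rest of the pathway was described from 5 lists with 97 genes, of which 95 were tested. None of the 95 passed an adjusted p of 0.05 in the edgeR test, whereas DESeq2 called 8, limma-voom 1 and edgeR with a stricter filter on low counts 2. At an unadjusted edgeR p under 0.05, 9 were higher with LTβR-Ig and 9 lower, or 9.47% in each direction, beside the 3.39 and 2.93% of all genes given above. The median log2 fold change over the 95 genes was 0.08, beside 0.00 for all genes tested.

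Of 23 genes that carry or restrain the RANK signal inside the receiving cell, 6 had an unadjusted p under 0.05, 0 of them higher and 6 lower with LTβR-Ig, and the median log2 fold change was -0.16. The 4 with the smallest p were Relb, a subunit of non-canonical NF-κB (log2 fold change -1.15, SE 0.25), Cyld, a deubiquitinase that restrains NF-κB (-1.23, SE 0.33), Map3k14, the NF-κB inducing kinase (-0.89, SE 0.24) and Tnfaip3, another NF-κB inhibitor (-1.33, SE 0.47). Among these 4, Relb and Map3k14 also act in LTβR signalling. The rest of the 6 were Traf2 (-0.64, SE 0.23) and Nfkb2 (-0.83, SE 0.30), named outside the rule given below. NF-κB genes serve receptors other than RANK, LTβR among them. The libraries are of LEPR+ cells, in which Tnfrsf11a had 0 to 3.77 CPM, so these levels do not measure RANK signalling. The cause of the lower levels was not tested. Cyld had 9.79, 7.32, 12.7 and 21.3 CPM in LTβR-Ig replicates 1 to 4, against 23.5, 32.0, 36.8 and 27.6 CPM in control replicates 1 to 4, with no overlap. Lgr4, which encodes another receptor of RANKL, had 8.02 to 12.7 CPM in 3 LTβR-Ig libraries and 69.9 CPM in replicate 4, against 8.19 to 13.6 CPM in controls, and it was picked out with its values in view.

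Of 29 genes known to control Tnfsf11 in stromal cells, 3 had an unadjusted p under 0.05 with higher levels and 1 with a lower level, with a median log2 fold change of 0.01. Creb1, the transcription factor that parathyroid hormone activates through cAMP, had 41.9, 69.7, 71.5 and 11.2 CPM in LTβR-Ig replicates 1 to 4, against 9.09, 7.82, 7.46 and 5.39 CPM in control replicates 1 to 4. The groups did not overlap, yet LTβR-Ig replicate 4 lay near the controls, and the log2 fold change was 2.71 (SE 0.52, edgeR adjusted p = 0.165). Crtc2, a CREB coactivator, had 0.42 (SE 0.18), the stress transcription factor gene Atf4 0.30 (SE 0.09) and Gnas, which encodes the stimulatory G protein subunit, -0.25 (SE 0.11), as log2 fold changes.

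The receptors through which vitamin D and parathyroid hormone control RANKL were looked at after their values were seen. Vdr, the vitamin D receptor gene, had 24.4, 89.2, 19.5 and 55.0 CPM in LTβR-Ig replicates 1 to 4, against 15.4, 41.1, 30.4 and 39.96 CPM in control replicates 1 to 4. Its groups overlapped (log2 fold change 0.57, SE 0.50). In both groups replicates 2 and 4 had the highest Vdr and also the highest Tnfsf11. Pth1r, the receptor gene of parathyroid hormone, had 110 to 157 CPM with LTβR-Ig and 80.0 to 126 CPM in controls, also with overlap (log2 fold change 0.38, SE 0.18), and replicates 2 and 4 were its highest LTβR-Ig libraries, but replicates 3 and 4 its highest controls.

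Of 20 genes of the Wnt, TGF-β and BMP routes that act on Tnfrsf11b in mesenchymal cells, 1 had an unadjusted p under 0.05, with a higher level (median log2 fold change 0.11). This was Tcf7l1, a Wnt pathway transcription factor, at 39.4 to 44.5 CPM with LTβR-Ig and 7.57, 32.6, 8.22 and 27.8 CPM in control replicates 1 to 4 (log2 fold change 1.13, SE 0.47). The Wnt co-receptor gene Lrp5 had 0.91 (SE 0.45), the β-catenin gene Ctnnb1 0.20 (SE 0.11) and Smad4, a mediator of TGF-β and BMP signals, 0.30 (SE 0.19), each with overlapping groups.

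Of 8 genes for proteases that can shed RANKL and for their inhibitors, 7 were tested, and 2 had an unadjusted p under 0.05, both higher (median log2 fold change 0.44). Mmp14, a membrane protease that releases RANKL from the cell surface, had 144, 239, 149 and 196 CPM in LTβR-Ig replicates 1 to 4, against 120, 118, 128 and 127 CPM in control replicates 1 to 4. The groups did not overlap, and replicates 2 and 4 were the highest LTβR-Ig libraries, as for Tnfsf11, whereas control replicate 2 was the lowest control. The inhibitor gene Timp2 had a log2 fold change of 0.38 (SE 0.10), Timp3 had 0.44 (SE 0.41) and the sheddase gene Adam17 0.15 (SE 0.14). Adam10, named after its values were seen, was at 232 to 316 CPM in LTβR-Ig libraries and at 254, 280, 9.51 and 6.48 CPM in control replicates 1 to 4, so a pair of control libraries had almost none of its counts.

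Of 17 other secreted factors that act on osteoclasts or their precursors, 16 were tested, and 5 had an unadjusted p under 0.05, 3 higher and 2 lower (median log2 fold change 0.07). The monocyte chemokine genes Ccl7 and Ccl2 were the lower pair, with log2 fold changes of -1.89 (SE 0.25) and -1.19 (SE 0.19). Slit3, a secreted guidance protein, had 134 to 145 CPM with LTβR-Ig and 79.5 to 117 CPM in controls, without overlap, and the interleukin gene Il1a had 5.59 to 25.8 CPM with LTβR-Ig and 2.96 to 8.04 CPM in controls, with overlap. Csf1, the survival factor that osteoclast precursors need beside RANKL, had 493 ± 39.8 CPM with LTβR-Ig and 470 ± 78.9 CPM in controls (SD, n = 4 each), and the 95% interval of its log2 fold change was -0.23 to 0.37. Il34, the gene of another ligand of the same receptor, had 176 ± 26.4 CPM with LTβR-Ig and 200 ± 57.7 CPM in controls (SD, n = 4 each). Csf1 and Il34 were named after their values were seen.

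**Figure D4:**
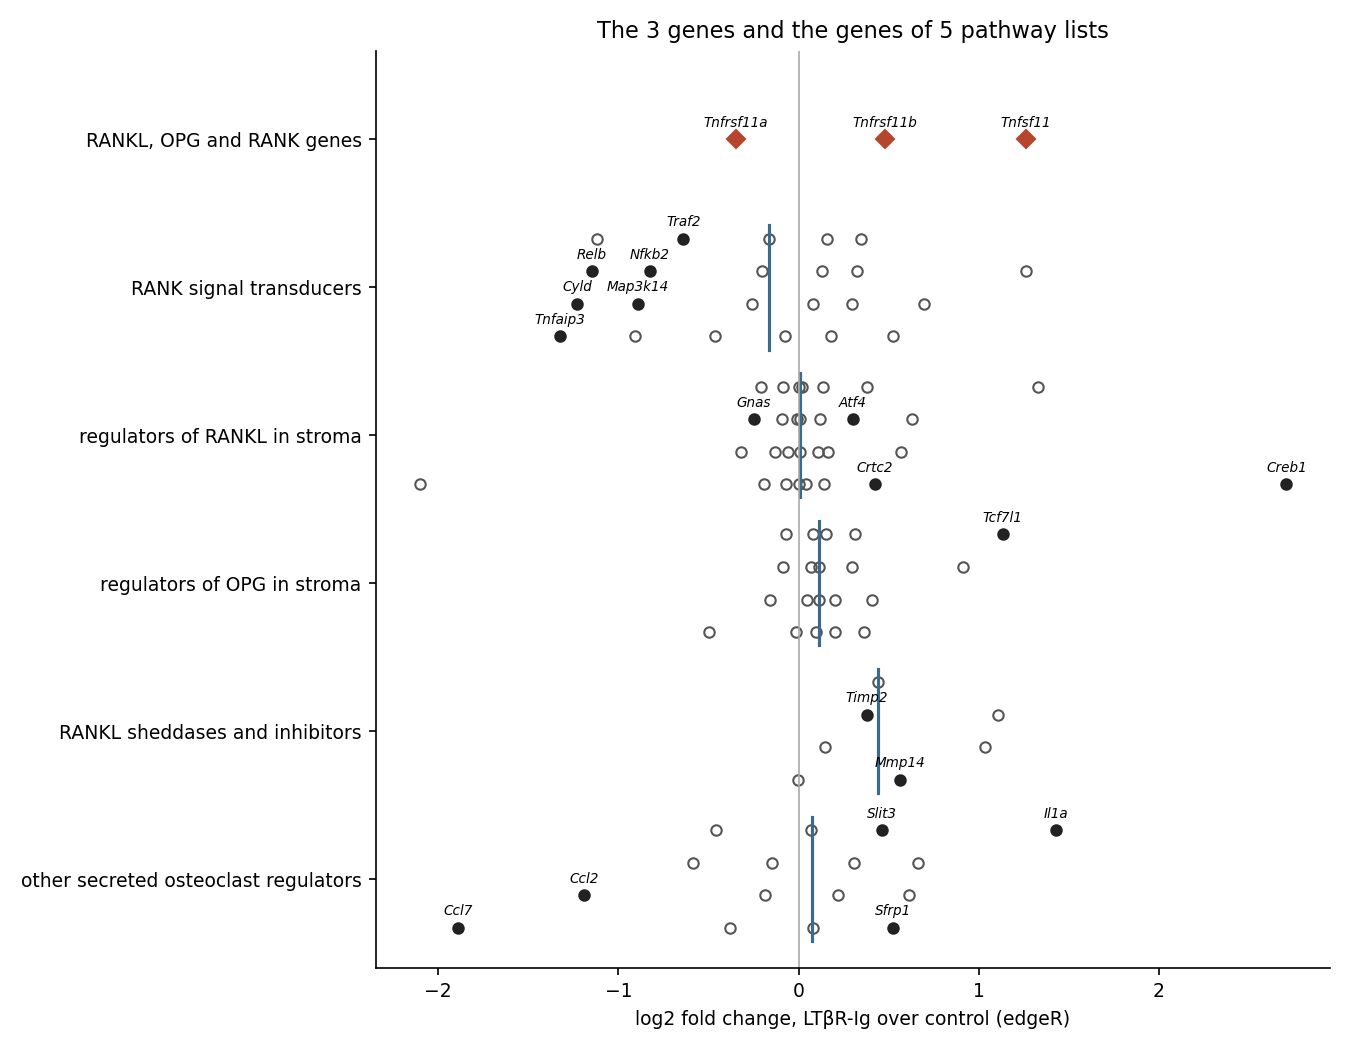
log2 fold changes (LTβR-Ig over control, edgeR) of the 3 genes as diamonds and of the tested genes of the 5 pathway lists as circles, spread vertically for legibility. Filled, named circles have an unadjusted p under 0.05, open circles do not, and blue lines mark list medians, which run from -0.16 for the RANK signal genes to 0.44 for the sheddases and inhibitors.

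Other cells of the marrow also make RANKL, and their markers were set beside Tnfsf11. The 11 T cell markers summed to 9.29 to 25.1 CPM in LTβR-Ig libraries and 9.77 to 24.3 CPM in control libraries, with 0 of 8 tested at an unadjusted p under 0.05. The highest of them, Cd4, had 2.61 to 14.5 CPM with LTβR-Ig and 1.34 to 8.70 CPM in controls, Lck had 0 to 5.51 CPM with LTβR-Ig and 1.46 to 11.5 CPM in controls, and Cd5 was under 1 CPM in each library. B and plasma cell markers summed to 145 to 1047 CPM with LTβR-Ig and 203 to 1233 CPM in controls, with 0 of 8 at that p, and Jchain, which plasma cells express, stood at 968 CPM in LTβR-Ig replicate 2 and 1171 CPM in control replicate 2. The 6 osteocyte markers summed to 184 to 268 CPM with LTβR-Ig and 176 to 184 CPM in controls, mostly Phex, with Sost and Fgf23 at 0 counts in each library and 1 of 3 tested, Phex, higher at that p. The 6 chondrocyte markers summed to 38.9 to 177 CPM with LTβR-Ig and 21.98 to 111 CPM in controls, mostly Col2a1 and Sox9, with Ihh at 0 counts and 0 of 2 tested at that p.

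Osteoblast markers, 12 genes, summed to 16068 to 26326 CPM in LTβR-Ig libraries and 14568 to 30782 CPM in control libraries, and 3 had an unadjusted p under 0.05, each higher. The 3 and Bglap were named after their values were seen. Ibsp and Col1a2, which had the highest means of the list, had log2 fold changes of -0.07 (SE 0.32) and 0.24 (SE 0.35), with overlapping groups. Runx2, named outside the rule given below, had -0.39 (SE 0.72), also with overlap. Mmp13, the collagenase gene, had 1349, 1959, 888 and 2784 CPM in LTβR-Ig replicates 1 to 4, against 906, 914, 798 and 874 CPM in control replicates 1 to 4, and LTβR-Ig replicates 2 and 4 were its highest libraries as for Tnfsf11. Alpl, the bone alkaline phosphatase gene, had 459 to 662 CPM with LTβR-Ig and 201 to 382 CPM in controls, and Sp7, the osteoblast transcription factor gene, 26.1 to 50.3 CPM with LTβR-Ig and 14.4 to 28.5 CPM in controls. Both were highest in LTβR-Ig replicate 3, where Tnfsf11 was the lowest of its group. Bglap, the osteocalcin gene of mature osteoblasts, reached 1702 CPM in that library, while the remaining LTβR-Ig libraries had 255 to 653 CPM. Among controls it reached 1217 CPM in replicate 4, and the remaining controls had 172 to 588 CPM. The part of these cells in the Tnfsf11 difference was not tested.

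**Figure D5:**
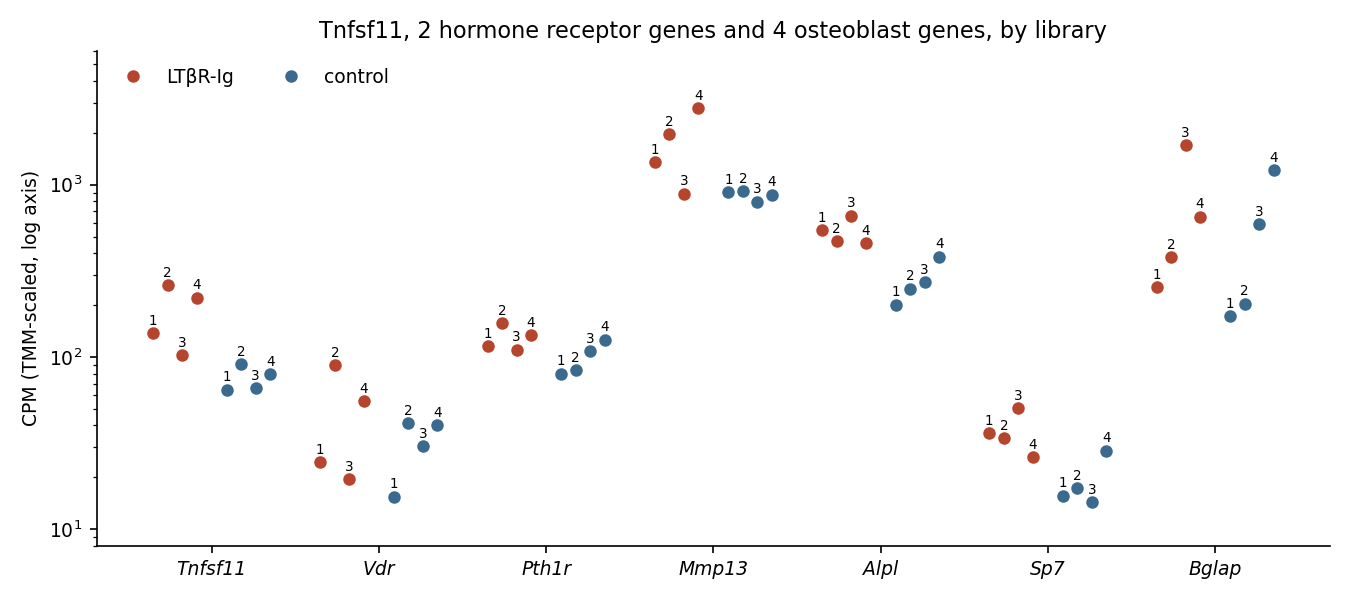
CPM on a log axis of Tnfsf11, the receptor genes Vdr and Pth1r, and the osteoblast genes Mmp13, Alpl, Sp7 and Bglap in each library, LTβR-Ig left of control, with the replicate number above each point. LTβR-Ig replicates 2 and 4 lie highest within their group for Tnfsf11, Vdr, Pth1r and Mmp13, and LTβR-Ig replicate 3 for Alpl, Sp7 and Bglap.

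Of 14 osteoclast markers, Calcr and Siglec15 had no count in any library, and Ocstamp, Dcstamp and Oscar reached at most 1.30 CPM. Atp6v0d2 was at 0 CPM in LTβR-Ig replicate 1 and control replicate 2. The remaining markers of the list were present in each library. Among them Ctsk, the cathepsin K gene, had 209 to 266 CPM with LTβR-Ig and 194 to 211 CPM in controls. Acp5, the gene of tartrate-resistant acid phosphatase, had 36.4 to 52.7 CPM with LTβR-Ig and 29.9 to 58.2 CPM in controls. Mmp9 had 14.0 to 35.1 CPM with LTβR-Ig and 28.7 to 58.2 CPM in controls, with overlap. Acp5, Atp6v0d2 and Mmp9 were named outside the rule given below. The list summed to 5140 to 6404 CPM with LTβR-Ig and 5940 to 7761 CPM in controls, mostly Car2, an enzyme gene that erythroid cells also express. Of 9 tested, 2 had an unadjusted p under 0.05, Ctsk higher (log2 fold change 0.24, SE 0.10) and Mmp9 lower (-0.90, SE 0.34). Dendritic cell markers summed to 303 to 772 CPM with LTβR-Ig and 263 to 839 CPM in controls, with 0 of 7 at that p. Endothelial markers summed to 49.5 to 323 CPM with LTβR-Ig and 60.2 to 187 CPM in controls, and megakaryocyte markers to 809 to 3298 CPM with LTβR-Ig and 531 to 2331 CPM in controls, with 0 of 10 and 0 of 7 at that p and median log2 fold changes of 0.58 and 0.59. LEPR+ stromal markers summed to 34996 to 44453 CPM with LTβR-Ig and 31953 to 40207 CPM in controls, with 0 of 12 higher and 2 lower at that p.

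Genes whose level followed Tnfsf11 most closely over the 8 libraries were found among 10592 genes with a mean of at least 5 CPM. By Pearson's r of log2 CPM they were Shisa4 (0.98), Ece1 (0.97) and Map1lc3a (0.97), which encode a transmembrane adaptor, the endothelin converting enzyme and an autophagy protein. Shisa4 had 20.1, 34.1, 18.3 and 31.3 CPM in LTβR-Ig replicates 1 to 4, against 13.6, 16.9, 15.3 and 16.9 CPM in control replicates 1 to 4. For Tnfrsf11b they were Rps6ka5 (0.96), a kinase gene, Haus7 (0.96), a spindle protein gene, and Zbtb10 (0.95), a zinc finger gene. They are the highest of many values over few libraries, so r is given as a description with no p. For Tnfsf11, r spans both groups, so a gene that is also higher with LTβR-Ig gains from that shared difference. The log2 fold changes of Shisa4, Ece1 and Map1lc3a were 0.73, 0.65 and 0.84.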

How the data were processed

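Per gene and library, the authors deposited whole-number read counts without normalization, for 8 libraries in 1 matrix. Paired reads of 76 bp were sequenced, per the labels' protocols. HISAT2 and HTSeq are the tools, and mm10 the build, per the submitters' processing notes. The sources used here give no versions, annotation release or strand setting. Symbols, positions and exon lengths came from GENCODE M21 and matched 52489 of 52636 gene IDs without version suffix.

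Counts were tested with edgeR 4.0.16 in R 4.3.3 on 16045 genes kept by filterByExpr (minimum count 10, minimum total 15), with TMM scaling, a robust quasi-likelihood F test of LTβR-Ig against control on all 8 libraries, no covariate and Benjamini-Hochberg adjustment over all genes. CPM values are TMM-scaled, and CPM per kb divides by the union of exons. SE is the log2 fold change over the square root of F. The fit was tested on simulated data drawn at the spread typical of each level. Such data do not cover genes that vary more widely, as Tnfrsf11b did. Replicate libraries of a group differed far beyond counting noise (chi-square per degree of freedom 140 to 265), so none was counted as a duplicate.

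The 3 genes and all lists were chosen with earlier results of these data known. Per pathway list the rule named up to 4 genes with the smallest p. It also named the 4 highest genes of each TNF family with the neighbours of each of the 3 genes, the 3 genes closest to Tnfsf11 and to Tnfrsf11b (on log2 of CPM plus 0.5) and, of marker lists, leading genes and those at 0. Genes outside it are marked. Alternatives were DESeq2 1.42.0, limma-voom (limma 3.58.1) with sample weights, other scalings and filters, a block for the replicate number, and fits with libraries left out. Protein sequences, and a promoter of Tnfrsf11b, were not used here.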

Additional observations from a re-analysis of the deposited data

Results flagged for a closer look

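With 4 libraries in a group, a value was singled out when most of the group's range lay between it and its nearest neighbour, by Dixon's 95% limit. By chance about 1 group in 20 meets this. Of 150 groups examined, over the 3 genes, their ratio and most of the other genes named, 12 did. Genes marked as outside the naming rule, Lepr and genes cited for low or absent counts were not examined. Several of these genes, among them Lgr4 and Il6st, were named after their values were seen, so 12 of 150 cannot be set against that rate.

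The ratio of Tnfsf11 to Tnfrsf11b was 59.1 in control replicate 4, while the remaining controls had 4.49 to 9.47. Lgr4, the gene of another RANKL receptor, reached 69.9 CPM in LTβR-Ig replicate 4, while the remaining LTβR-Ig libraries had 8.02 to 12.7 CPM. Il6st, a receptor gene for interleukins that control RANKL, had 72.88 CPM in LTβR-Ig replicate 1, and the rest of its group 242 to 264 CPM. It had 78.89 CPM in control replicate 1, and the rest of the controls 250 to 280 CPM.

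In the TNF families, LTβR-Ig replicate 3 had 13.3 CPM of Tnfsf14, the LIGHT gene, while the rest of its group had 3.11 to 4.34 CPM. Control replicate 4 had 9.76 CPM of Tnfsf14, while the rest of the controls had 0.607 to 2.00 CPM. LTβR-Ig replicate 2 had 265.4 CPM of Tnfrsf1a, and the rest of its group 215.8 to 222.3 CPM. LTβR-Ig replicate 4 had 5.53 CPM of Ngfr, and the rest of its group 0 to 0.406 CPM. Control replicate 1 had 211.1 CPM of Tnfrsf19, and the rest of the controls 288.1 to 298.9 CPM.

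Among markers, LTβR-Ig replicate 2 had 967.9 CPM of Jchain, and the rest of its group 76.1 to 190.4 CPM. Control replicate 2 had 1171 CPM of Jchain, and the rest of the controls 145.4 to 304 CPM. LTβR-Ig replicate 4 had 3.07 CPM of Sox9, and the rest of its group 19.2 to 20.7 CPM.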

How the results depend on the processing

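The log2 fold change of Tnfsf11 kept its sign in 16 of 16 alternatives (0.96 to 1.46). DESeq2, which gave 1.26, put it past an adjusted p of 0.05 and the other 15 did not, and nothing is read from this because the gene was proposed from this contrast. Tnfrsf11b kept its sign in 15 of 16, and leaving out 1 library gave -0.0742 (without LTβR-Ig replicate 3) to 0.83. Tnfrsf11a reversed in 5 of 15, with 0.33 in limma-voom, 0.26 without control replicate 3 and LTβR-Ig replicate 2 (a setting chosen after seeing the data), and -1.76 to 0.50 when 1 library was left out; the strict filter left it untested. The causes were not tested.

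The count of genes called, 6, was 339 in DESeq2, 14 in limma-voom, 22 with the strict filter, 2 to 9 with 1 library left out and 1 without control replicate 3 and LTβR-Ig replicate 2. The count of pathway genes at an unadjusted p under 0.05, 18, ranged from 12 to 23. The difference in log2 ratio, 0.60, was -0.10 to 1.38 with 1 library left out, 1.06 from medians, 0.61 with 5 counts added and 0.78 from the fitted changes.

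No pair of same-numbered libraries deviated together at a correlation over 0.1 (0.0958, 0.0525, 0.0763 and -0.000539 for numbers 1 to 4, in number order). Of 4 LTβR-Ig libraries, 1 correlated best with its own number. Single genes did run together by number: Il6st, an interleukin receptor gene picked out with its values in view, had 72.9 CPM in LTβR-Ig replicate 1 and 78.9 CPM in control replicate 1, while the remaining libraries had 242 to 264 CPM with LTβR-Ig and 250 to 280 CPM in controls. Jchain was highest in replicate 2 of each group, and Tnfrsf11a had no count in either replicate 2. With the replicate number as a block the count of calls was 1. The mean difference in log2 ratio within numbers was 0.60, which equals the difference of group means by arithmetic. Of the 4 differences within numbers, 2 were higher with LTβR-Ig, and their SD was 1.87. The log2 fold changes with the block were 1.18 (SE 0.18) for Tnfsf11, 0.58 (SE 0.74) for Tnfrsf11b and -0.73 (SE 1.98) for Tnfrsf11a. Without it their SEs were 0.29, 0.72 and 1.80. Counting error at the mean count was 1.18% for Tnfsf11, 4.05% for Tnfrsf11b and 10.8% for Tnfrsf11a, below the spread between libraries of each gene.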
